A study of Mus musculus with 6 samples.

Results

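The Hox genes are the homeobox genes that lie in 4 clusters in the mouse genome, and they are described here by paralog group, that is by the position number they share between clusters. Every entry of the gene table whose RefSeq identifier belonged to a protein-coding gene named Hoxa, Hoxb, Hoxc or Hoxd plus a number was taken, and of a gene with several entries the entry with the highest level was kept. This gave 39 genes from 42 entries, of 19338 named genes in 20633 entries. Hoxb3, Hoxa10 and Hoxd11 were the 3 genes with more than 1 entry. Paralog groups 1 to 4 (12 genes) are referred to as anterior, groups 5 to 8 (11 genes) central and groups 9 to 13 (16 genes) posterior.

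The measurement was nuclear RNA-seq of mouse embryonic stem (ES) cells, in which RNA from isolated nuclei, depleted of ribosomal RNA, was sequenced as 40 bp read pairs. All 6 libraries came from RYBPfl/fl;YAF2-/- ES cells, which carry loxP sites around Rybp, lack Yaf2 and express a tamoxifen-inducible Cre recombinase. The untreated group (UNT, 3 libraries) still had Rybp. The other group (OHT, 3 libraries) received 800 nM 4-hydroxytamoxifen for 96 hr, which deletes it. Both groups thus lacked Yaf2, and neither was a wild-type line. The Yaf2 deletion was made by genome editing and colonies were isolated singly. The cells grew on gelatin in serum medium with leukaemia inhibitory factor (LIF). The labels number 3 biological replicates per group and do not say whether these were separate cultures.

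Hox proteins are homeodomain transcription factors that give cells their position along the head-to-tail axis and in the limbs. Within a cluster the genes all point the same way, and in the embryo the low-numbered genes are switched on first and furthest forward, the high-numbered ones later and further back. In ES cells the clusters are textbook targets of Polycomb repressive complexes, in which RYBP and YAF2 are alternative subunits of variant PRC1. Retinoic acid, Wnt signalling and the Cdx proteins switch the genes on as cells leave pluripotency.

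The level given for each gene is its base mean, the mean over all 6 libraries of its reads divided by the library's size factor, which the authors deposited as 1 value per entry. It joins UNT and OHT libraries, so it says nothing of the difference between them, and no test of OHT against UNT was made. It is not divided by gene length, so levels of different genes are compared on a further scale, the base mean per kb of transcript span, that is from the start to the end of the transcript, introns included. A percentile is a gene's rank among all entries on the scale named. The ES cell label was checked with pluripotency genes. Of 12 listed, 11 had an entry, and these had base means of 1565 (Utf1) to 12088 (Tfcp2l1), all above the median of 236.4 over all entries. Of 7 fibroblast genes, which would mark feeder cells, 6 had a base mean of at least 10 (Col1a1 369, Dcn 10.2) and Postn had 1.35. Of 6 genes of primitive endoderm and other differentiated cells, 5 had at least 10 (Gata4 269, Gata6 133) and Foxa2 had 7.42. Of all entries, 75.8% had at least 10. Held to the median of all entries, as the pluripotency genes were, 1 of the 7 (Col1a1) and 1 of the 6 (Gata4) lay above it. The part of feeder or differentiated cells in the Hox levels was not tested. In these bulk nuclei, few cells with much Hox RNA and many cells with little cannot be told apart.

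Hox transcripts were scarce but none was absent. All 39 genes had a base mean above 0, from 0.225 for Hoxa13 to 69.5 for Hoxb9, with a median of 7.95. None reached the median of all entries, 13 were at or above the first quartile of all entries (11.3) and 26 were under it. A base mean of at least 10 was seen for 15 Hox genes (38.5%), against 75.8% of all entries. The summed base mean of the 39 genes was 505.8, or 0.00216% of the sum over the whole table.

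By class, the anterior genes had a base mean of at least 10 in 7 of 12 cases and a median of 15.8. The central class had 2 of 11 and a median of 8.47, and the posterior class 6 of 16 and a median of 6.98. The anterior and posterior counts moved with the alternatives, and the classes differ in size. They were 4 of 7 against 6 of 12 without genes overlapped on the same strand. With the lowest entry of each gene they were 6 of 12 against 6 of 16. As a share of its class, the anterior count stayed the larger in both. The spread within a class was far wider than the distance between medians. Base means ran from 1.81 to 12.98 in the central and from 0.225 to 69.5 in the posterior class, and the lowest anterior gene had 3.98. The anterior median was 2.26 times the posterior one, but 1.13 times when paralog group 3, the group with the longest transcripts, was left out. That alternative was chosen after seeing the data.

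**Figure D1:**
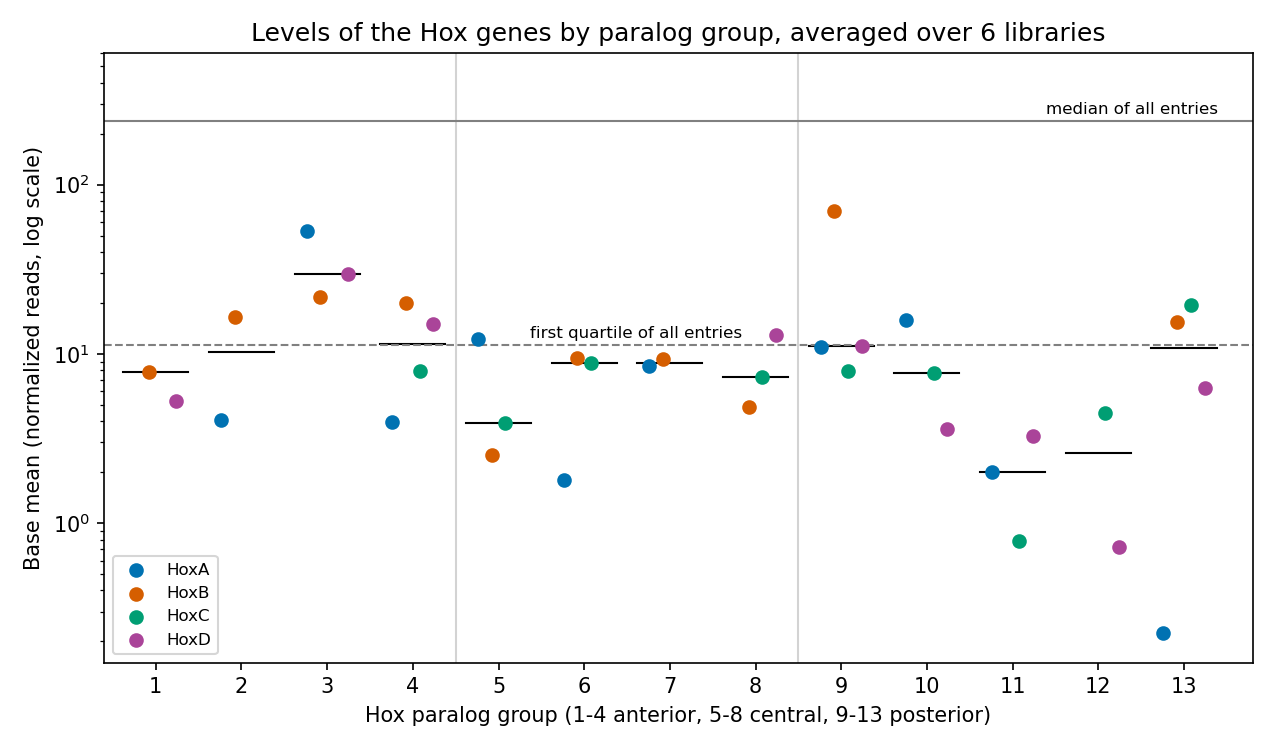
Base mean (mean of normalized reads over 6 libraries, log axis) of Hox genes by paralog group number, coloured by cluster, with group medians as black bars. Among the genes drawn Hoxb9 and Hoxa3 lie highest and Hoxa13 lowest, and all lie under the median of all entries (236.4).

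Among the anterior genes, paralog group 1 is the first to respond to retinoic acid and patterns the hindbrain. Hoxb1, which sets the identity of the fourth hindbrain segment, had a base mean of 7.87, and Hoxd1 had 5.26. Per kb of span they had 3.14 and 2.43. Group 2 shapes the second branchial arch and the hindbrain. Hoxb2 had 16.5 and Hoxa2 4.07. Group 3 patterns the neck vertebrae, thymus and parathyroid, and on the base mean scale it was the one group with every member above the first quartile. Hoxa3 had 53.1, Hoxd3 29.8 and Hoxb3 21.8, with 8.97 for the other Hoxb3 entry. Per kb of span these genes were low, at 1.21, 0.819 and 0.886. Group 4 is known from the hindbrain, the neck vertebrae and, for Hoxb4, blood stem cells. Hoxb4 had 19.9, Hoxd4 15.1, Hoxc4 7.90 and Hoxa4 3.98, and per kb they ran from 1.91 (Hoxa4) to 5.90 (Hoxb4).

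The central genes, which pattern the neck-to-thorax region of the trunk, spanned the narrowest range of the 3 classes. In group 5, Hoxa5, needed for lung and airway development, had a base mean of 12.3, while Hoxc5 had 3.90 and Hoxb5 2.51. In group 6, Hoxb6 had 9.50 and Hoxc6 8.86, and Hoxa6 had 1.81, the lowest of the class. The members of group 7 lay close together, Hoxb7 at 9.30 and Hoxa7 at 8.47, or 2.63 and 2.82 per kb of span. In group 8, Hoxd8 had 12.98, the highest of the class, Hoxc8 7.34 and Hoxb8, which acts in myeloid progenitors, 4.88.

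The posterior genes held both the highest and the lowest base mean. Group 9, which acts in the thorax, limbs and, for Hoxa9, blood progenitors, included Hoxb9 with a base mean of 69.5. Its paralogs were lower, with 11.2 for Hoxd9, 11.01 for Hoxa9 and 7.95 for Hoxc9. Per kb of span Hoxb9 stood at 13.5, 13.7 times Hoxc9. Group 10 suppresses ribs in the lumbar region. Hoxa10 had 15.8 (12.1 for its other entry), Hoxc10 7.69 and Hoxd10 3.62.

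Group 11 patterns the sacral region, the kidney and the lower limb segments, and was the group with the lowest median (2.00). Hoxd11 had a base mean of 3.29, Hoxa11 2.00 and Hoxc11 0.790. In group 12, Hoxc12 had 4.45 and Hoxd12, a digit gene, 0.728. Group 13 ends the axis and forms digits, the genital tract, prostate and hair, and it held members of very different base mean. Hoxc13, a regulator of hair keratins, had 19.5, Hoxb13, a prostate and tail gene, 15.4, Hoxd13, a digit gene, 6.26, and Hoxa13, a gene of digits and the urogenital tract, 0.225, from 1 read pair.

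A nuclear library samples introns as well as exons, so long transcripts can collect more reads. The group 3 entries were the longest of all Hox genes. Hoxa3 spanned 44054 bp, Hoxd3 36345 bp and Hoxb3 24605 bp, against a median of 3182 bp over the 39 genes and 19174 bp over all entries with a known transcript. The Hoxa3 transcript runs over Hoxa4, Hoxa5 and Hoxa6 on the same strand, and the Hoxd3 transcript over Hoxd4. Reads in those stretches cannot be assigned to 1 gene, so the levels of all 6 are uncertain. Hoxc6, Hoxc8, Hoxc9 and Hoxc10 likewise lie within a longer annotated transcript of Hoxc5. In all, 14 of the 39 Hox genes overlapped another annotated gene on the same strand, 10 of them another Hox gene, and 13 overlapped a gene on the other strand. Whether the counting used strand is not given in the sources used here.

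Dividing by the span of the transcript changed the order. On the scale of base mean per kb of span, Hoxb9 stood at the 52.9 percentile of all entries, above their median, against 37.8 by base mean. Hoxa3 moved from the 35.6 to the 29.1 percentile, Hoxd3 from 31.2 to 26.4 and Hoxb3 from 29.1 to 26.9. Short genes moved up, such as Hoxb2 from 27.4 to 44.3 and Hoxd8 from 25.9 to 42.6. The class medians per kb of span stood at percentiles 34.0 (anterior), 35.2 (central) and 31.4 (posterior). The ratio of the anterior to the posterior median was 1.38 per kb of span and 1.88 per kb of exons, and that of the anterior to the central median was 0.864 per kb of span. Across the 39 genes, Spearman's rho of base mean with paralog number was -0.33, and -0.28 for base mean per kb of span. With span itself, base mean had a rho of 0.38. These describe genes, several of which share reads with a neighbour, and genes are not independent replicates.

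**Figure D2:**
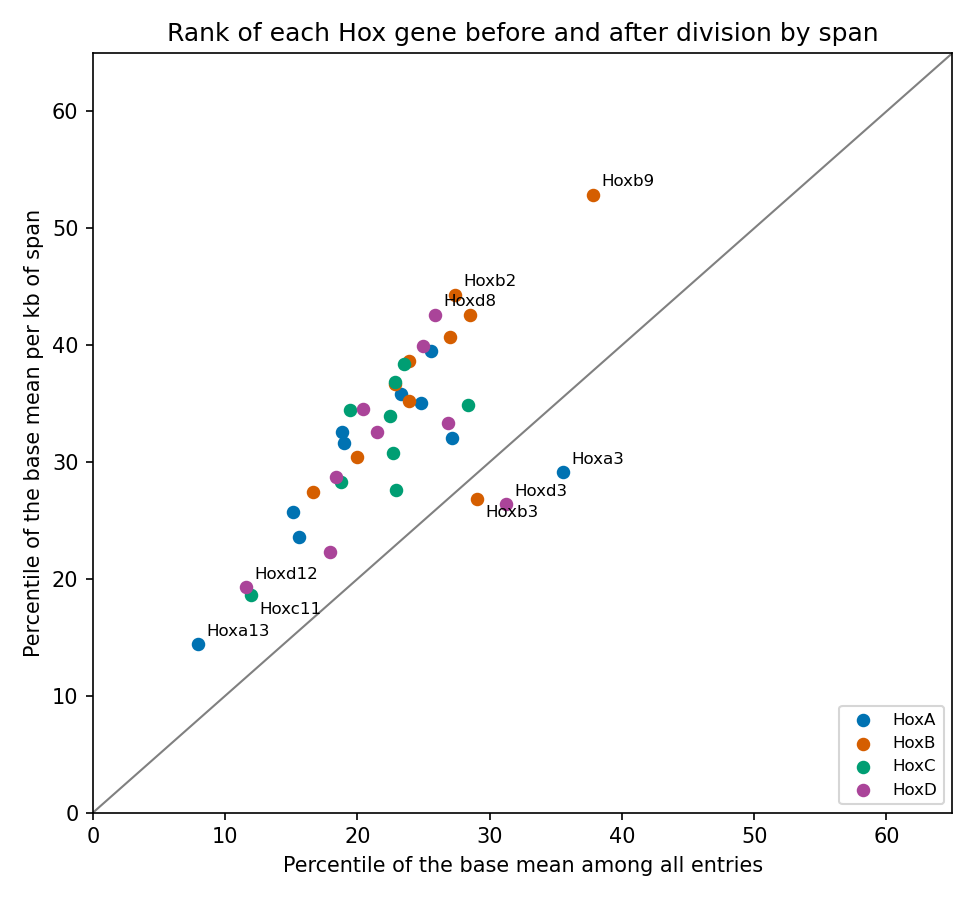
Percentile of Hox genes among all entries, by base mean (horizontal) and by base mean per kb of transcript span (vertical), coloured by cluster. Points above the diagonal rank higher once length is divided out, and the group 3 genes Hoxa3, Hoxb3 and Hoxd3 lie below it.

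By cluster, HoxB had the highest median base mean. HoxB lies on chromosome 11 (chr11:96194316-96368256, mm10, plus strand) and had a median of 12.5, with 5 of 10 genes at 10 or more. HoxA (chr6:52155590-52260880, minus strand) had a median of 8.47 with 5 of 11. HoxC (chr15:102921103-103036852, plus strand) had 7.69 with 1 of 9, Hoxc13 alone. HoxD (chr2:74668310-74765142, plus strand) had 6.26 with 4 of 9. In HoxA and HoxD the gene with the lowest level stood at or near the posterior end, Hoxa13 being the last gene and Hoxd12 the last but one. In HoxB and HoxC the last genes, Hoxb13 and Hoxc13, had base means above their cluster's median.

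The most abundant transcript inside a cluster was not a Hox gene. The non-coding RNA Gm53 (chr11:96251105-96264484, plus strand), in the interval between Hoxb13 and Hoxb9, had a base mean of 459.5, at the 59.5 percentile of all entries and 34.3 per kb of span, 2.54 times the level of Hoxb9 on that scale. It ends 6972 bases before the start of Hoxb9 and lies on the same strand, and Hoxb9 was the highest Hox gene. Whether reads of the pair belong to a shared transcript was not tested. The other 7 non-coding entries in or beside the clusters were low. Haglr, on the strand opposite to HoxD, had a base mean of 7.98, Hoxaas3 3.19 and Hoxa11os 3.05, and Hottip, Hotair, Hoxd3os1 and Gm14424 were listed at 0. The even-skipped genes, homeobox genes next to the posterior ends of HoxA and HoxD, had 5.97 (Evx1) and 0 (Evx2).

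Genes beside the clusters stood higher. Of 15 symbols listed as flanking the 4 clusters, 13 had an entry. Those without were Prac1 and Lnp, an older symbol of Lnpk, which was listed too and had an entry. The 13 had base means from 297 (Smug1) to 12976 (Cbx5, an HP1 chromatin protein) and a median of 1608. All 13 lay above the median base mean of all entries, and none of the 39 Hox genes did. Per kb of span, 12 of the 13 were at or above the median of all entries (10.99), and the exception was Skap1 at 1.09. The median of the 39 Hox genes on that scale was 2.11.

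**Figure D3:**
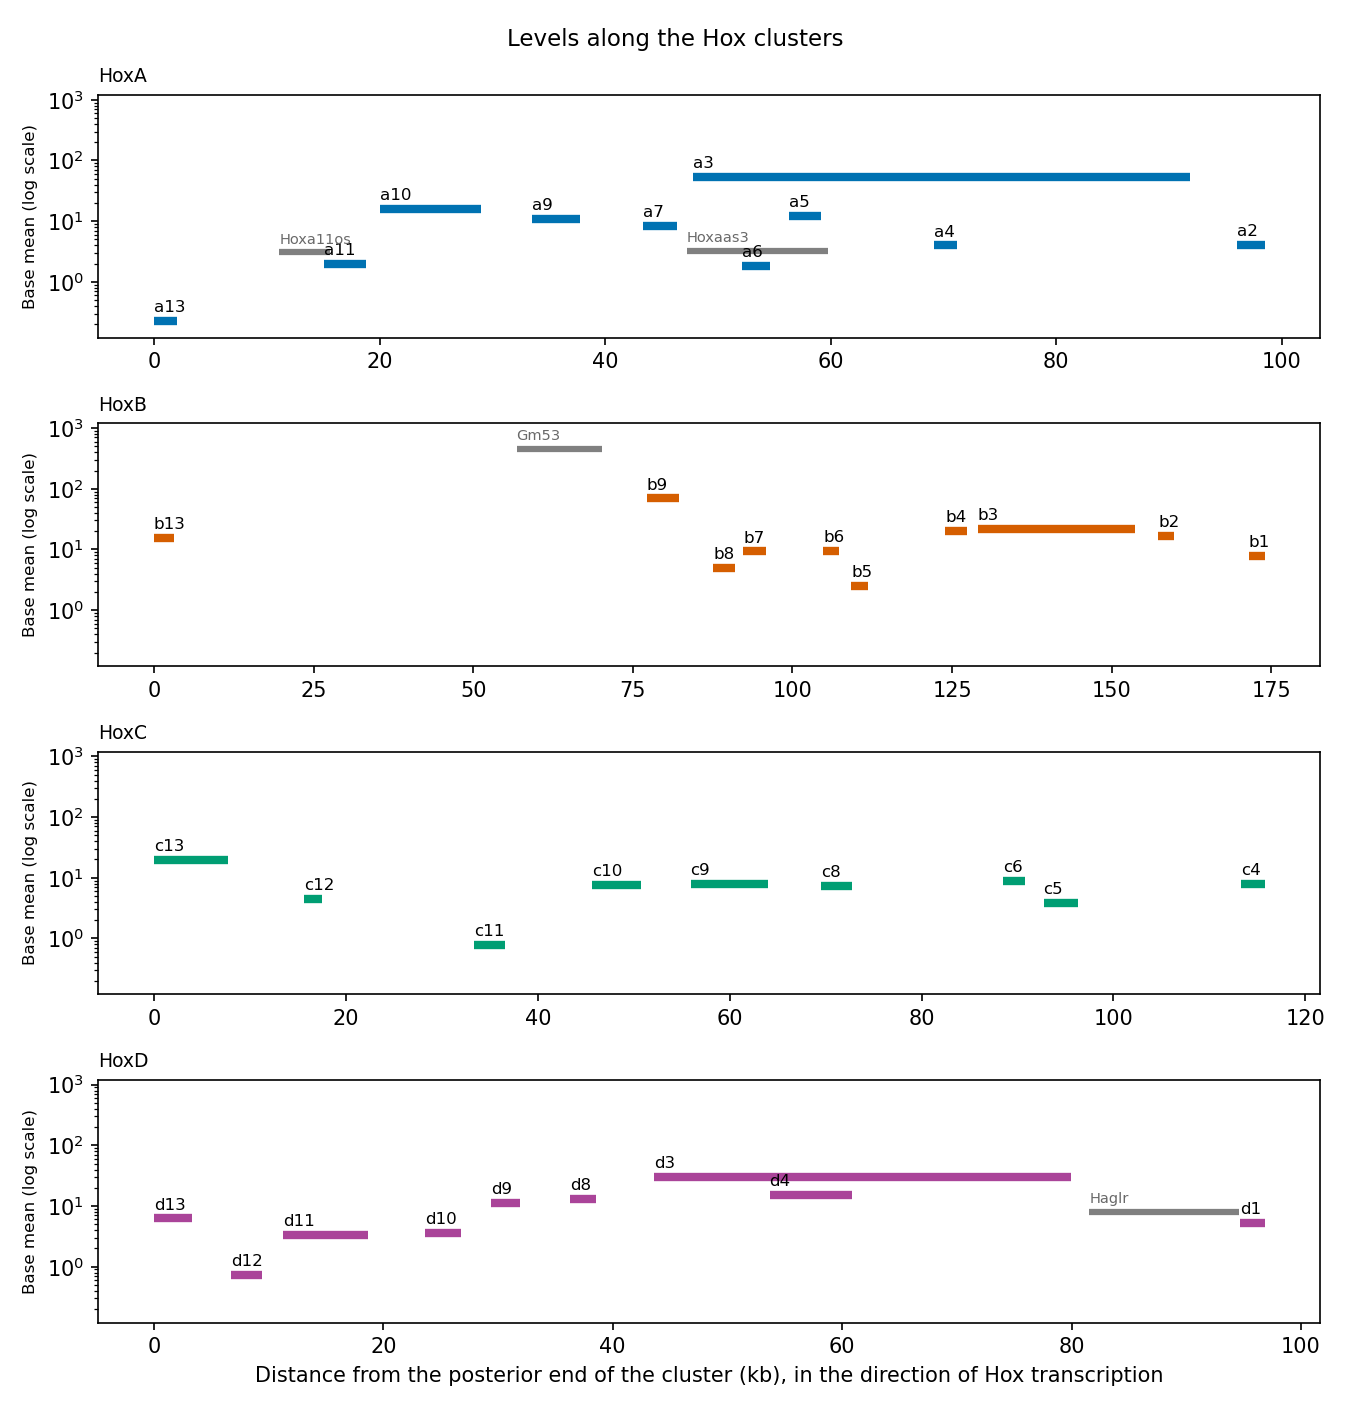
Base mean (log axis) of genes along each of the 4 clusters, by distance in kb from the posterior end, with Hox genes in their cluster's colour and non-coding entries above 0 in grey. Each bar runs over the transcript's span at the height of its base mean, and Gm53, between Hoxb13 and Hoxb9, is the highest bar of any cluster.

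The sequence just upstream of the start differed widely between Hox genes. Promoters from RefSeq (GRCm38.p6, 250 bases before to 50 after a start) were at hand for 22 of the 39 genes, 24 promoters in all. The 250 bases before the start are shown for the genes with the highest and the lowest base mean of each class among these 22, so that the ends of each range can be compared, read 5′ to 3′ on the gene's strand with each CG dinucleotide in capitals. For the anterior class these are Hoxa3 (chr6:52213068-52213317, minus strand) and Hoxa2 (chr6:52164832-52165081, minus). For the central class they are Hoxd8 (chr2:74704365-74704614, plus) and Hoxa6 (chr6:52208673-52208922, minus). For the posterior class they are Hoxa10 (chr6:52240855-52241104, minus) and Hoxa13 (chr6:52260881-52261130, minus). The Hoxa6 stretch lies inside the span of the Hoxa3 transcript.
Hoxa3: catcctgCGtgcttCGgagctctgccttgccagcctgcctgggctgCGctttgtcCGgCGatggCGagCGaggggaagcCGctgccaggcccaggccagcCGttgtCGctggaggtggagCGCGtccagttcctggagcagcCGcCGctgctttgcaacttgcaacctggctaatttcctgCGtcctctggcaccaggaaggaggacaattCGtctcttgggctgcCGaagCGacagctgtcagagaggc
Hoxa2: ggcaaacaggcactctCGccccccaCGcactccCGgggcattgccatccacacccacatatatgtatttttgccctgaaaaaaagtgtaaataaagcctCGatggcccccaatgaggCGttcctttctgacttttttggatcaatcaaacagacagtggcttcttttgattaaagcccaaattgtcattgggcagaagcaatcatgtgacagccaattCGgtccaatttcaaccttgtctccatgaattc
Hoxd8: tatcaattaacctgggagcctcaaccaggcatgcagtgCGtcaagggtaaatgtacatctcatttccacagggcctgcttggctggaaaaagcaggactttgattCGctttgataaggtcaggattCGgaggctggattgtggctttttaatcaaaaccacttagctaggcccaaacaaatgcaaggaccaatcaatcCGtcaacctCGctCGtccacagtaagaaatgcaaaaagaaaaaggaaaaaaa
Hoxa6: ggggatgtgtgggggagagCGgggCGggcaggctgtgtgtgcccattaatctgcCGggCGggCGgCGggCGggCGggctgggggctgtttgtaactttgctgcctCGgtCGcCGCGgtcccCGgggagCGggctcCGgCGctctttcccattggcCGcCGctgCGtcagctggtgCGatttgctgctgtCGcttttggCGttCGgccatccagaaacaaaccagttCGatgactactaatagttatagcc
Hoxa10: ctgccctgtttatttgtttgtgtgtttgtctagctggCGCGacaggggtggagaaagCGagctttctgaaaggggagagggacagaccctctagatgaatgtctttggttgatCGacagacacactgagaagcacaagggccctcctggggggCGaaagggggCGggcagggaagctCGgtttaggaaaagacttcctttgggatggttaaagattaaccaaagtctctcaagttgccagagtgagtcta
Hoxa13: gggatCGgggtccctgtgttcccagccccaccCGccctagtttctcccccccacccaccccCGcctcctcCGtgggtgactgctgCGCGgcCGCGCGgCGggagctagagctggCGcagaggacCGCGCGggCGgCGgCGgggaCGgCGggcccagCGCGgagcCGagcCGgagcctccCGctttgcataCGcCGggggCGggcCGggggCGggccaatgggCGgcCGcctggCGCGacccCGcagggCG

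Of the 6 stretches shown, that of Hoxa13, the gene with the lowest level, had the most CG dinucleotides (35), followed by Hoxa6 with 24 and Hoxa3 with 18. Hoxa2 had 6, Hoxa10 7 in the stretch shown and Hoxd8, the highest central gene, 6. Hoxa10 has another promoter in the table, 5915 bases from the start of its entry, with 20 before the start. These 6 stretches stand for single genes and not for their classes. Hoxa5, with a base mean of 12.3 close to that of Hoxd8, had 28, more than Hoxa6. Over the whole 300 bases, the 24 Hox promoters had a median of 14.5 CG dinucleotides (4 to 45), against 7 over 32851 promoters of all genes. Hoxa13 had 45, with a GC content of 81%. At least 10 CG dinucleotides were found in 17 of the 24, and in 43.5% of all promoters. Unmethylated CG-rich DNA is the kind of sequence at which Polycomb complexes gather in ES cells.

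Short motifs were searched on both strands of the 300 bases. TAATTA, the homeodomain core site, was in 2 Hox promoters (8.33%), both of Hoxd11, and in 5.29% of all promoters. TGATTGAT, bound by Pbx-Hox pairs, was in 2, of Hoxa2 and Hoxd11, and in 0.746% of all. TTTATTG, a Cdx site, was in 2, of Hoxb8 and Hoxd4, and in 4.60% of all. TATAAA was in 4, of Hoxa10, Hoxb8, Hoxd4 and Hoxd13, and in 13.6% of all. These are matches of letters in a short window, and with 24 promoters a share moves by several percent with each match.

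A base mean does not show how the reads were spread over libraries. Each base mean is a sum of whole read counts, each weighted by its library's size factor, and for entries under a base mean of 10 the 6 counts could be worked back from the deposited value. This succeeded uniquely for 3558 of 3565 such entries, among them 24 of the 39 Hox genes. The size factors ran from 1.48 to 0.664, and the libraries are numbered 1 to 6 in that order. Which of them were UNT and which OHT is not assigned, so values are given per library only. The mates of a pair appear to be counted singly, since 84.3% of the Hox counts above 0 were even. The read pairs behind a gene, with an odd count rounded up, are therefore given with exact 95% Poisson bounds, which cover counting error only.

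The counts were small. Hoxa13 rested on 1 read pair, in library 1, with bounds of 0.0253 to 5.57 pairs. Hoxd12 rested on 2 pairs, in libraries 1 and 6, with bounds of 0.242 to 7.22, and Hoxc11 on 3 pairs, in libraries 1 and 3, with bounds of 0.619 to 8.77. These 3 posterior genes cannot be ordered at this depth, since their bounds overlap. At the other end of the 24, Hoxb6 rested on 32 pairs (21.9 to 45.2), Hoxc6 on 31 (21.1 to 44.0) and Hoxa7, Hoxb1 and Hoxb7 on 29 each (19.4 to 41.6). The bounds of these also overlap, while those of Hoxb6 and Hoxa13 do not. The 15 genes with a base mean of 10 or more rested on more reads, for Hoxb9 between 277 and 616 and for Hoxa9, the lowest of them, between 43.8 and 97.7, depending on how the reads were spread. The 2 entries of Hoxd11 differed by 1 read, in library 1.

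Many genes owed their base mean to a few libraries. Hoxb6 had 10, 28, 4, 18, 0 and 4 reads in libraries 1 to 6. Hoxb1 had 12, 25, 2, 13, 0 and 3. Hoxa2 had 8, 14, 0, 8, 0 and 0. In each of these, libraries 1, 2 and 4 held most reads and library 5 held none. The same held for Hoxb5, with 4, 8, 0, 6, 0 and 0, and for Hoxb8, with 12, 10, 0, 10, 0 and 2. The other Hoxb3 entry had 13, 23, 0, 26, 0 and 0.

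Other genes were spread more evenly. Hoxd13 had 6, 10, 6, 8, 2 and 6 reads, and Hoxd10 had 3, 2, 4, 6, 4 and 2. Hoxb7 had 18, 10, 2, 14, 6 and 8, and Hoxa7 17, 10, 5, 15, 4 and 4. Hoxd11 had reads in every library but was not even, with library 2 far ahead. It had 3 reads in library 1, 11 in library 2 and 2 in each of the others. Of the 24 genes, 8 had reads in every library, and 16 had at least 1 library without. Of all entries worked back, 19.8% had reads in every library. By a 1-sided 95% limit, not the exact bounds given earlier, a library without reads allows up to 3 read pairs by counting error. Leaving out 1 library, an alternative added after seeing the data, lowered the mean of 5 of the 24 genes by over 1.5 times. These were Hoxa4 (3.98 to 2.54 without library 2), Hoxc5 (3.90 to 2.27 without library 6), Hoxc11 (0.790 to 0.407 without library 1), Hoxd12 (0.728 to 0.270 without library 6) and Hoxa13 (0.225 to 0 without library 1).

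The remaining central genes lay between these patterns. Hoxc6 had 22, 20, 0, 12, 0 and 7 reads, and Hoxc8 had 10, 21, 4, 8, 0 and 6. Hoxc5 had 7, 6, 0, 2, 0 and 8, with its highest normalized value in library 6. Hoxa6, with 0, 4, 1, 2, 4 and 0, was the 1 gene of the 24 whose highest normalized value stood in library 5. Among the anterior genes, Hoxc4 had 18, 20, 4, 8, 4 and 2 reads, Hoxd1 18, 10, 4, 3, 4 and 0, and Hoxa4 8, 15, 0, 4, 0 and 2.

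The remaining posterior genes were led by library 1 in 3 cases of 5. Hoxc9 had 22, 11, 4, 12, 4 and 2 reads, and Hoxc10 had 20, 14, 2, 6, 4 and 6. Hoxc12 had 11, 4, 8, 2, 0 and 4, Hoxa11 2, 6, 4, 2, 0 and 0, and Hoxc11 4, 0, 2, 0, 0 and 0. After division by the size factor, library 3 was highest for Hoxc12 and library 2 for Hoxa11.

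**Figure D4:**
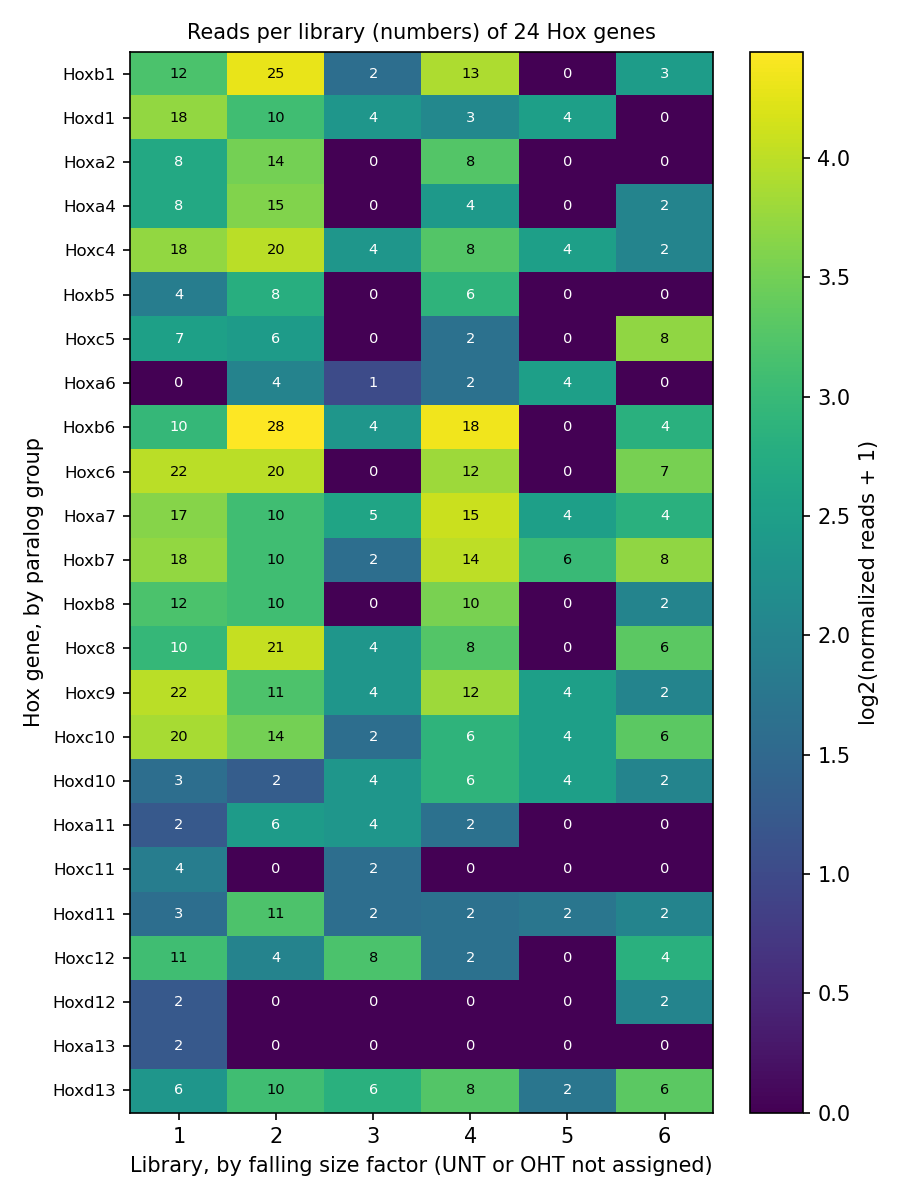
Reads of the 24 Hox genes with a base mean under 10 in each of the 6 libraries, which are numbered by falling size factor and not assigned to UNT or OHT. Numbers are reads, colour is log2(normalized reads + 1), and libraries 3 and 5 hold the most empty cells, 8 and 14 of 24. Of all entries worked back, 44.8% had no reads in library 3, 39.9% in library 5 and 48.1% in library 6, the highest share.

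Summed over the 24 genes, the normalized reads (reads divided by the size factor) were 161.6, 192.3, 58.9, 172.9, 44.7 and 105.5 in libraries 1 to 6. The highest library thus held 4.30 times the lowest. Over all 3558 entries worked back the same ratio was 1.41, and over 20 other homeobox regulators it was 2.23, with values of 87.9, 49.0, 56.9, 78.4, 109.4 and 63.3. These ratios are not on equal terms, since a sum over few genes and reads scatters more. The Hox sums rest on 38 to 259 reads per library, and those over all entries on 7377 to 18276. Library 5 was lowest for the Hox genes and highest for the other homeobox genes. The size factors of libraries 1 to 6 were 1.48, 1.35, 0.984, 0.931, 0.850 and 0.664. The part of depth in the spread of the Hox sums was not tested.

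The classes differed in how far the sums were spread over libraries, with no test of the difference. The 5 anterior genes worked back summed to 43.3, 62.4, 10.2, 38.7, 9.41 and 10.5 normalized reads, 6.63-fold from lowest to highest. The 9 central genes summed to 67.6, 86.9, 16.3, 93.4, 16.5 and 58.8, or 5.75-fold, and the 10 posterior genes to 50.7, 43.1, 32.5, 40.8, 18.8 and 36.2, or 2.69-fold. The order of the classes is not firm, since without library 2 the anterior ratio was 4.60 and the central one 5.75, and without library 5 the posterior ratio was 1.56. By cluster, the 5 HoxB genes varied 9.28-fold, the 8 HoxC genes 5.46-fold, the 6 HoxA genes 4.02-fold and the 5 HoxD genes 1.74-fold, and without library 5 the HoxC ratio was 3.16. The library sums were made from few reads, 38 in library 5 and 259 in library 2. Only genes with a base mean under 10 enter them, so Hoxb9 and all of group 3 do not. The fibroblast genes gave 1 gene that could be worked back, Postn, with reads in libraries 2 (8) and 4 (2) alone, and the endoderm and differentiation list gave Foxa2, with 20, 6, 9, 4, 6 and 4 reads. Their part in the Hox sums was not tested.

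**Figure D5:**
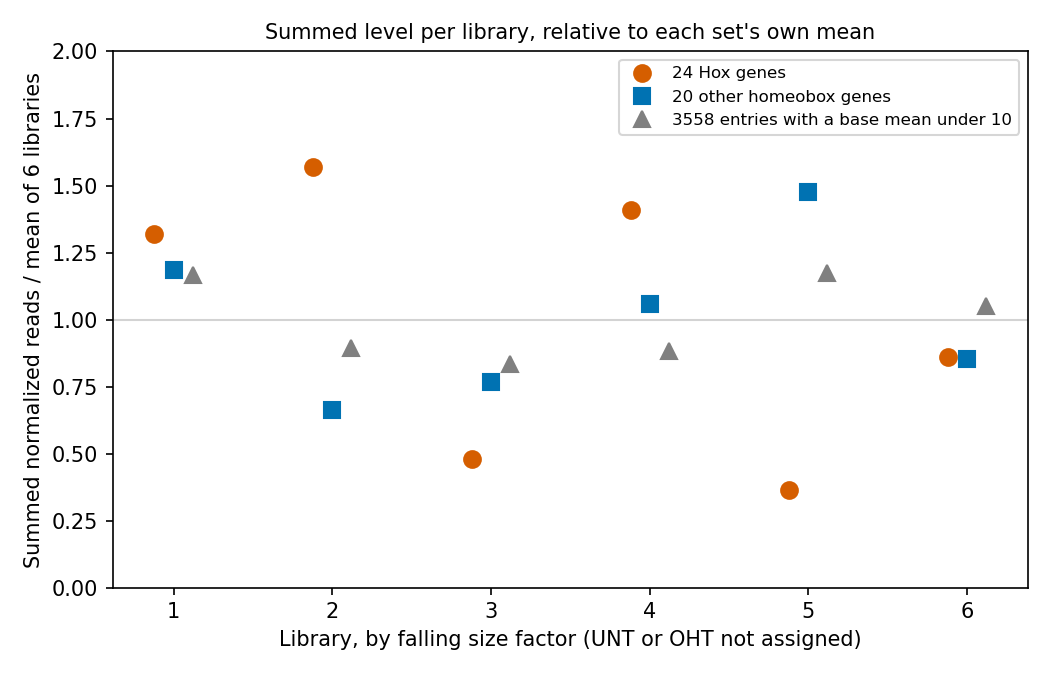
Normalized reads summed over 24 Hox genes, 20 other homeobox genes and all entries worked back, each relative to its own mean over the 6 libraries. The Hox sum runs from 0.364 (library 5) to 1.57 (library 2). The sum over all entries, which holds far more genes and reads and so scatters less, runs from 0.834 to 1.18.

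The partners of Hox proteins had a higher median by base mean, and by a smaller margin per kb of span. The TALE homeodomain cofactors, which bind DNA together with Hox proteins, all had entries. The 9 genes ranged in base mean from 35.4 (Meis3) to 3753 (Pbx3), with a median of 500.8, and 8 were above the median of all entries. Per kb of span their median was 10.6, against 2.11 for the 39 Hox genes, and 4 of 9 were at or above the median of all entries. Pbx2 had 95.3 per kb and Pbx3 18.7, whereas Meis1 (3.83) and Meis2 (1.26) were in the range of the Hox genes.

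The upstream regulators fell on both sides. Of 10 retinoid genes, the receptor genes Rara (30.1 per kb of span) and Rarg (58.3) were high, and Cyp26a1, which degrades retinoic acid, had 11.8. Aldh1a2, which makes it, had 0.861, and 6 of the 10 were at or above the median of all entries per kb. Of the 6 Cdx and ParaHox genes, Cdx2, a direct Hox activator and trophoblast factor, had 11.4 per kb (base mean 73.4), the only one at or above that median. Cdx1 had 6.57 (base mean 114), Gsx1 5.91, Pdx1 1.01, Cdx4 0.542 and Gsx2 0.108.

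Other homeobox developmental regulators, the genes most like the Hox genes in kind, had similar base means. The 30 listed ran from 0.392 (Gsc) to 250 (Gbx2), with a median of 5.60, and 10 of 30 were at 10 or above, against 15 of 39 Hox genes. Per kb of span their median was 0.735 and that of the Hox genes 2.11. Their upper end reached further. Gbx2 had 77.7 per kb, En2 22.0 and Otx2 19.3, each above the median of all entries. These 2 lists are described by their values alone, and no difference between them was tested.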

How the data were processed

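Nuclear RNA-seq libraries were prepared with a directional kit and, per the study's methods, cleared of ribosomal RNA reads with Bowtie2 and aligned to mm10 (GRCm38) with STAR, with unmapped reads aligned again with Bowtie2. Reads were counted over a non-redundant RefSeq gene set filtered for size, mappability and unique ends. The deposited table held 1 signal value per entry that the authors made with DESeq2, the base mean, which is the mean of size-factor-normalized counts over 3 UNT and 3 OHT libraries. Its further columns hold the authors' own comparison (fold change, its error, test statistic, p-values and a threshold flag) and were not used, so no UNT against OHT test is given. There were 0 columns of per-sample values.

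Entries were named from RefSeq (20450) or GENCODE (110), and 73 stayed unnamed. Spans and exons came from GENCODE vM21 transcripts for 20261 entries. Size factors were read from base means of single-read entries, and library counts under a base mean of 10 were solved as whole numbers, with gaps of at most 6.04e-10. On 3128 simulated entries under that limit, 97.2% were recovered, 0 wrongly, and 89 were ambiguous. Libraries were not assigned to groups. Genes were named in the order of paralog groups, with the highest and lowest member of a group where reported, and some results are not reported here. Motifs, lists and members were chosen with earlier results of these data known. A planned comparison of protein sequences was not run. Alternatives changed the entry kept, the length scale, the level minimum, the classes and overlapped genes, and left out each library where counts were solved. Python 3.11.15, numpy 2.4.6, pandas 2.3.3, scipy 1.17.1 and matplotlib 3.10.9 were used.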

Additional observations from a re-analysis of the deposited data

How the results depend on the processing

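Of 127 alternative values, 105 stayed within 1.5 times of those given (a share, within its 95% binomial interval) and 22 did not. This tally is not a measure of firmness, since many of the values had little room to move. A ratio of library sums can change only when the highest or the lowest library is left out. A share of 0 in a class of few genes has a wide interval. The ratio of the anterior to the posterior median, 2.26, was 1.384 per kb of span and 1.132 without paralog group 3, and it ran from 1.73 to 2.74 in the other alternatives, never under 1. The counts of genes with a base mean of at least 10 (anterior 7, central 2, posterior 6, HoxA 5, HoxB 5, HoxC 1, HoxD 4) depend on that minimum. With a minimum of 1 they were 12, 11, 13, 10, 10, 8 and 8, and with a minimum of 100 they were 0 in each class and cluster. Without genes overlapped on the same strand fewer genes were counted. The counts were then 4 of 7 in the anterior class, 1 of 6 in the central class and 6 of 12 in the posterior class. HoxA had 3 and HoxD 2. With the lowest entry per gene the anterior class had 6 of 12 and the posterior class 6 of 16. As a share of its class, the anterior count stayed above the posterior one in both. The share of posterior genes at or above the median of all entries was 0 except per kb of span, where it was 6.25% (Hoxb9). No paired analysis was possible because UNT and OHT values are joined in each base mean, so samples with shared numbers cannot be compared. Numbered replicates could not be left out, but unassigned libraries could for the 24 genes worked back. The ratio of the highest to the lowest library sum, 4.30, then ran from 3.26 (without library 5) to 4.30. Depth limits the 24 genes under a base mean of 10, which rest on 1 to 32 read pairs.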

Other observations

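Sorted by value, the normalized reads summed over the 24 Hox genes worked back were 192.3 (library 2), 172.9 (library 4), 161.6 (library 1), 105.5 (library 6), 58.9 (library 3) and 44.7 (library 5). Sorted the same way, the sums over 20 other homeobox genes were 109.4 (library 5), 87.9 (library 1), 78.4 (library 4), 63.3 (library 6), 56.9 (library 3) and 49.0 (library 2). Which of these libraries were UNT or OHT is not assigned, so the values are given per library and no groups were formed from them. Evx1, the homeobox gene beside the posterior end of HoxA, had 16, 2, 6, 0, 2 and 10 reads in libraries 1 to 6, and the 3 Cdx and ParaHox genes under a base mean of 10 summed to 15.6, 8.91, 4.07, 5.37, 4.70 and 28.6 normalized reads, highest in library 6.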
